A study of Mus musculus with 22 samples.

Results

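Conjugation makes a foreign or spent compound more soluble by joining it to glutathione, glucuronic acid or sulfate, and the genes of the enzymes that do so were followed here in the liver of tumour-bearing mice. They were chosen by name, as protein-coding genes of the deposited count table whose symbol begins as a glutathione S-transferase of the alpha, kappa, mu, omega, pi, theta or zeta class (Gsta, Gstk, Gstm, Gsto, Gstp, Gstt, Gstz), a microsomal glutathione S-transferase (Mgst), a UDP-glycosyltransferase of families 1 to 3 (Ugt) or a sulfotransferase (Sult). This gave 47 of the 15448 genes in the table, made up of 20 Gst, 2 Mgst, 17 Ugt and 8 Sult genes, out of 67 such genes in the annotation. The other 20 annotated genes were not analysed here. A filter on low counts left 14785 genes for testing, among them 46 of the 47, and removed only Gsta1.

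Liver polyA RNA was measured in 22 male wild-type mice of the CD2F1 strain, each library being a separate mouse of the stated group. The C26-TDCA mice (n = 8) carried C26 cells, a mouse colon carcinoma line that causes wasting, and were given taurodeoxycholic acid (TDCA), a bile acid made with the help of gut bacteria, at 10 mg/kg by daily injection into the peritoneum. The C26 mice (n = 8) carried the same cells without TDCA, and the CT mice (n = 6) were sham-injected and received vehicle. The sources used here do not state ages, the number of cells injected or the day of sampling. Both tumour groups were compared with CT, and C26-TDCA with C26.

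Glutathione S-transferases attach glutathione to electrophiles such as epoxides and lipid aldehydes. UDP-glucuronosyltransferases, in the membrane of the endoplasmic reticulum, use UDP-glucuronate to conjugate bilirubin, steroids, bile acids and drugs. Sulfotransferases transfer sulfate from the donor PAPS to phenols, steroids and bile acids, and hepatocytes hold high levels of many of these enzymes.

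C26-TDCA libraries held 20.5 to 28.3 M counts, C26 libraries 17.5 to 28.1 M and CT libraries 16.5 to 25.3 M (M, mega), so that 3 counts, taken as the limit that a count of 0 allows, were at most 0.179 counts per M counts of the library (CPM). The 20 most abundant genes took 34.8 to 39.2% of the counts in C26-TDCA, 33.1 to 39.9% in C26 and 21.6 to 21.9% in CT, which moves with the tumour groups, and its part in the results was not tested. Levels are CPM after TMM scaling, and every adjusted p is from edgeR's quasi-likelihood test with Benjamini-Hochberg adjustment over all 14785 genes, with 0.05 as the threshold. One library stood apart from its group. C26 replicate 2 was the highest of the 8 C26 libraries for 30 of the 46 tested conjugation genes, and 12 of them lay over 1 log2 unit above the C26 median there. It had the fewest counts of its group, 17.5 M, and the lowest share of the 20 most abundant genes, 33.1%. The plot of deviations by library shows its shift beside the lower C26 replicates 1 and 3, each of which was the lowest C26 library for 17 of the 46 genes.

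**Figure D1:**
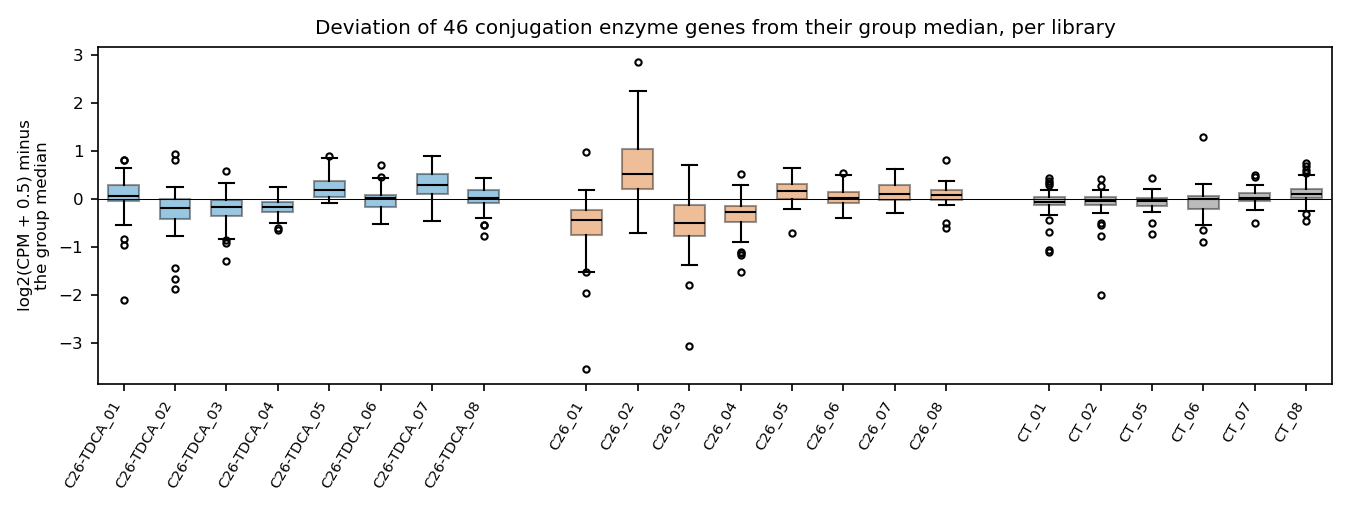
Deviation of each of the 46 tested conjugation genes from the median of its own group, in log2(CPM + 0.5), for each library (box: quartiles and median over genes; whiskers: to 1.5 times the quartile range; points: genes beyond). C26 replicate 2 sits above the other C26 libraries, and C26 replicates 1 and 3 sit below them.

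The conjugation genes fell together in tumour-bearing mice, with few exceptions. In C26 against CT, 40 of the 46 tested genes fell, 2 rose (Sult1e1 and Sult2a7) and 4 were not called (Gstm5, Gstp3, Sult1a1 and Ugt3a2). Among all tested genes 29.2% fell and 28.9% rose. The median log2 fold change was -1.78 over the conjugation genes and -0.003 over all tested genes. A fall by more than 1 log2 unit was called for 32 of the 46, against 7.52% of all tested genes. For 32 of the 46, every C26 library was below every CT library, against 15.3% of all tested genes, and for Sult1e1 every C26 library was above, as for 14.2% of all tested genes.

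In C26-TDCA against CT, 39 of the 46 fell, 3 rose (Sult1a1, Sult1e1 and Sult2a7) and 4 were not called, against 28.2% and 28.7% of all tested genes that fell and rose. The median was -1.77 over the conjugation genes and 0.01 over all tested genes. For 36 of the 46, every C26-TDCA library was below every CT library, against 16.2% of all tested genes, and for Sult1e1 every C26-TDCA library was above, as for 15.4% of all tested genes. Both tumour groups were set against the same CT libraries, so the 38 genes that fell in both are not 2 separate observations.

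Summed over the 47 genes, conjugation transcripts averaged 4224 ± 559 CPM in C26-TDCA (SD, n = 8), 4358 ± 1060 CPM in C26 (n = 8) and 11619 ± 694 CPM in CT (n = 6), so the C26 mean was 37.5% of the CT mean. They made up 0.332 to 0.480% of the counts in C26-TDCA libraries, 0.287 to 0.599% in C26 libraries and 1.28 to 1.46% in CT libraries, with no overlap between the tumour groups and CT. The 4 families did not shrink alike. The Gst sum was 939 ± 122 CPM in C26-TDCA, 1030 ± 263 CPM in C26 and 3799 ± 178 CPM in CT, which put C26 at 27.1% of CT. The Ugt sum was 1055 ± 171, 1102 ± 274 and 4238 ± 471 CPM in C26-TDCA, C26 and CT, with C26 at 26% of CT. The Sult sum was 552 ± 116, 480 ± 135 and 1386 ± 131 CPM in the same order, with C26 at 34.7% of CT. In these 3 families every library of both tumour groups was below every CT library. The Mgst sum was 1679 ± 211, 1745 ± 426 and 2196 ± 97.5 CPM, with C26 at 79.5% of CT. C26 replicate 2 (2483 CPM) was above every CT library there. The other C26 libraries reached at most 2054 CPM, and the lowest CT library was at 2081 CPM. Mgst1 alone gave 99.4 to 99.8% of this sum in the 3 groups, while the other member, Mgst3, had a log2 fold change of -1.95 in C26. Without C26 replicate 2 the C26 sums were 25% (Gst), 74.7% (Mgst), 24.4% (Ugt) and 33.3% (Sult) of CT.

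**Figure D2:**
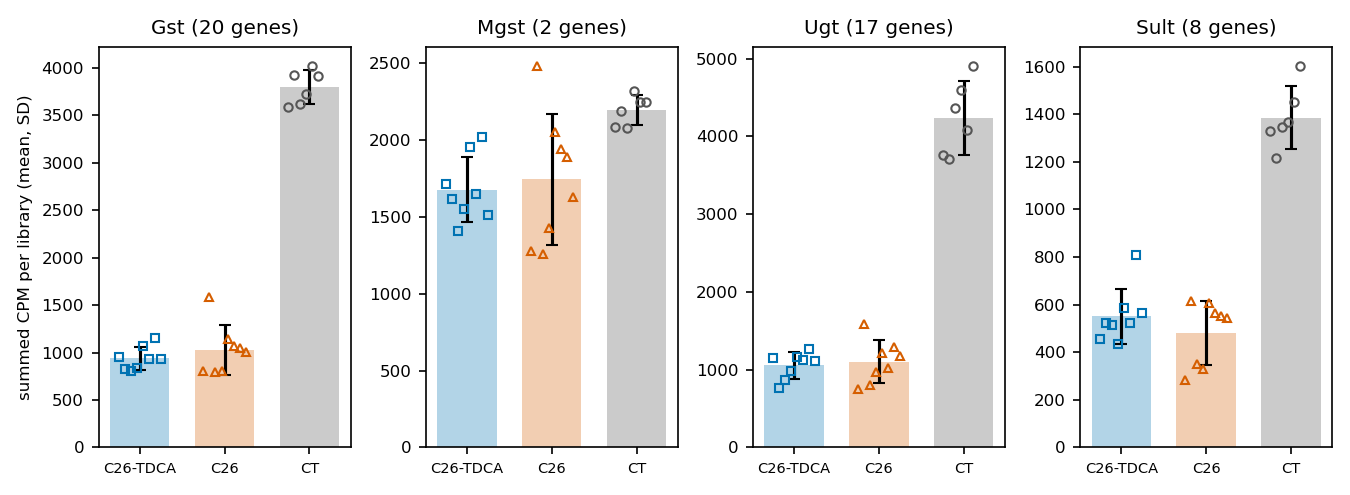
Summed CPM of each conjugation family per library (points), with the group mean (bar, from 0) and SD (line), for C26-TDCA (n = 8), C26 (n = 8) and CT (n = 6). The Gst, Ugt and Sult sums of both tumour groups lie below all CT libraries, whereas the Mgst sum of C26 replicate 2 lies above them. The other Mgst sums of both tumour groups lie below CT.

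These are bulk livers, in which fewer cells of a type and less RNA per cell cannot be told apart. The summed level of 14 hepatocyte markers was 72488 to 87842 CPM in C26-TDCA, 67500 to 87846 CPM in C26 and 73770 to 84159 CPM in CT, so the summed levels overlapped, and no hepatocyte marker was at 0. Single hepatocyte markers did move in C26 against CT, where 6 rose, 5 fell and 3 were not called. Among all tested genes 28.9% rose and 29.2% fell, and each count of markers can be read against these shares. Of 12 markers of pericentral hepatocytes, where many conjugation enzymes are known to be enriched, 7 fell, 1 rose and 4 were not called in C26 against CT, with summed levels of 7153 to 9653 CPM in C26-TDCA, 5216 to 9880 CPM in C26 and 8788 to 12285 CPM in CT. Of 11 markers of periportal hepatocytes 6 fell, 3 rose and 2 were not called, with 8400.0 to 12746 CPM in C26-TDCA, 7662 to 12295 CPM in C26 and 10832 to 14029 CPM in CT. Markers of other cell types moved with the tumour, among them 11 of 12 Kupffer cell markers, of which none fell, and whose sum was 590 to 779 CPM in C26-TDCA, 488 to 747 CPM in C26 and 298 to 345 CPM in CT. Of 8 tested monocyte and neutrophil markers 7 rose and none fell, with 18.1 to 44.5 CPM in C26-TDCA, 19.6 to 51.0 CPM in C26 and 2.41 to 6.57 CPM in CT. Of 9 cholangiocyte markers 4 rose and none fell, with 275 to 655 CPM in C26-TDCA, 261 to 790.0 CPM in C26 and 34.7 to 54.0 CPM in CT. Most of that sum was Spp1, which averaged 429 ± 162 CPM in C26-TDCA, 411 ± 172 CPM in C26 and 18.8 ± 3.56 CPM in CT. Of 12 stellate cell and fibroblast markers 9 rose and 1 fell, with 496 to 693 CPM in C26-TDCA, 396 to 629 CPM in C26 and 245 to 330.0 CPM in CT. Of 12 endothelial markers 10 rose and none fell, with 597 to 763 CPM in C26-TDCA, 457 to 753 CPM in C26 and 347 to 427 CPM in CT. T, B and natural killer cell markers fell for 3 of 8 tested genes and rose for none. That list summed to 2.65 to 6.00 CPM in C26-TDCA, 3.73 to 7.21 CPM in C26 and 6.40 to 10.6 CPM in CT. Erythroid markers rose for 5 of 6 tested genes and fell for 1, with 160 to 342 CPM in C26-TDCA, 168 to 668 CPM in C26 and 246 to 303 CPM in CT. The 1 tested exocrine pancreas marker fell. That list summed to 4.95 to 183 CPM in C26-TDCA, 5.82 to 14.7 CPM in C26 and 34.2 to 41.4 CPM in CT. Markers of intestinal epithelium and colon carcinoma rose for 2 of 6 tested genes and fell for 2. The part of these shifts in the conjugation results was not tested.

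**Figure D3:**
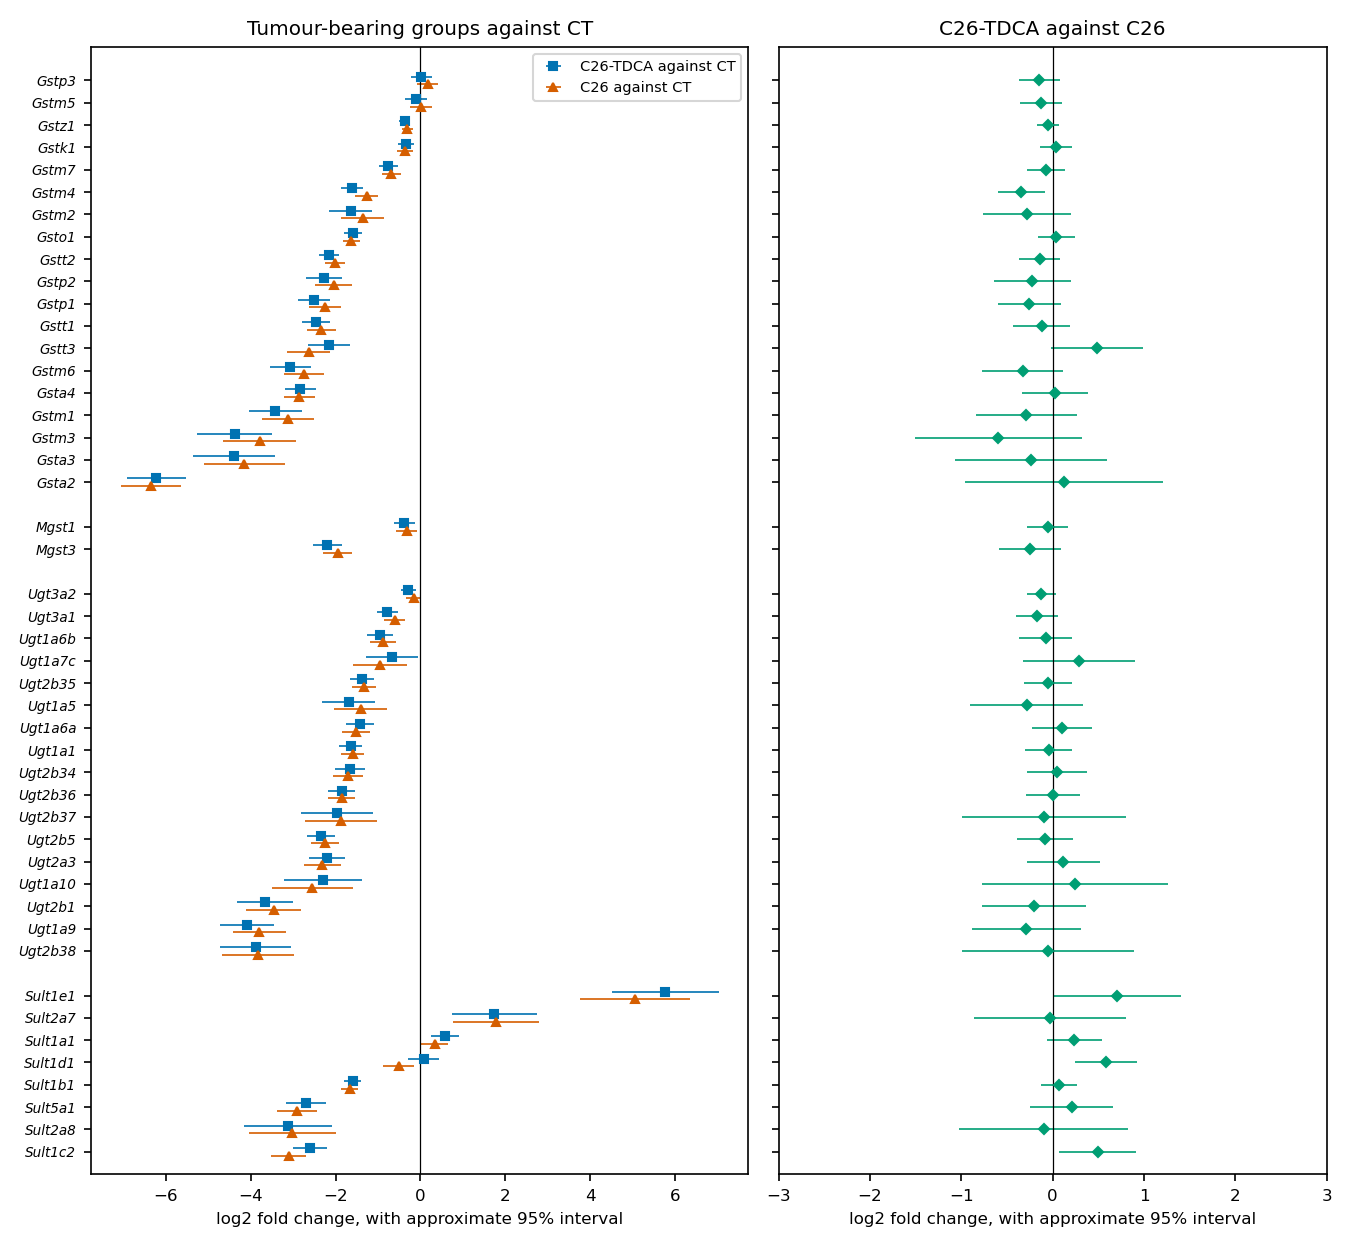
Log2 fold change of the 46 tested conjugation genes with approximate 95% intervals, by family and sorted by the change in C26 within each. On the left, C26-TDCA (squares) and C26 (triangles) are set against CT and most genes lie below 0. On the right, on a narrower axis, C26-TDCA is set against C26 and no gene passed the threshold.

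Among the cytosolic glutathione S-transferases, 17 of 19 tested genes fell in C26 against CT, none rose and 2 were not called, with a median of -2.05. This count and those of the single classes can be read against the 29.2% of all tested genes that fell and the 28.9% that rose. The alpha class, which handles lipid peroxidation products and the epoxide of aflatoxin, moved farthest, with all 3 tested genes lower and a median of -4.15. Gsta3 (chromosome 1, 21240589-21265661, plus strand) was at 12, 33.3 and 57.3 CPM (lowest, median, highest) in C26-TDCA, at 8.49, 30.8 and 148 CPM in C26 livers, and at 639, 764 and 829 CPM in CT. Every tumour-bearing mouse was below every CT mouse, and the log2 fold change was -4.15 (SE 0.49, adjusted p = 8.84e-08) in C26 and -4.39 (SE 0.49, adjusted p = 4.18e-08) in C26-TDCA. The mean of Gsta3 in C26 was 42.7 CPM and leaned on replicate 2, without which it was 27.7 CPM and the log2 fold change -4.77.

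Gsta2 (chromosome 9, 78331018-78355788, minus strand) had 0 to 16 counts in C26-TDCA libraries and 1 to 7 counts in C26 libraries, against 271 to 428 counts in CT libraries. Its log2 fold change in C26 was -6.35 (SE 0.36, adjusted p = 3.24e-13), the lowest of the 46. The neighbouring Gsta1 had 0 counts in all 8 C26-TDCA libraries, which allows up to 0.153 CPM in the smallest of them, 1 count in all 8 C26 libraries together and 4 to 32 counts in CT libraries. It had too few counts for the test, and 90.5% of its 50-base stretches also occur in other annotated genes (49.8% for Gsta2), so how reads were split within this pair is uncertain. Gsta4, whose enzyme conjugates 4-hydroxynonenal, had 7.07 CPM in C26-TDCA, 6.58 CPM in C26 and 53.2 CPM in CT (medians), with a log2 fold change of -2.86 in C26 (SE 0.19).

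The mu class lies side by side on chromosome 3, and 6 of its 7 genes fell in C26 while 1 was not called, with a median of -1.37. Gstm1, the leading mu gene in each group, was at 48.1, 57.9 and 104 CPM in C26-TDCA, at 30.6, 80.1 and 224 CPM in C26 livers, and at 712, 750 and 809 CPM in CT, with a log2 fold change of -3.13 in C26 (SE 0.31, adjusted p = 6.45e-09). Gstm3 was at 1.43, 2.40 and 3.78 CPM in C26-TDCA, at 0.933, 2.18 and 18.8 CPM in C26 livers, and at 47.7, 50.5 and 56.9 CPM in CT. All libraries of both tumour groups were below CT for these genes, and Gstm3 had a log2 fold change of -3.79 in C26 (SE 0.44, adjusted p = 8.16e-08). Its C26 mean of 3.96 CPM became 1.84 CPM without replicate 2, and the log2 fold change became -4.82.

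Gstm5 in the same cluster did not follow. It was at 3.80, 5.75 and 7.72 CPM in C26-TDCA, at 5.67, 6.19 and 8.25 CPM in C26 livers, and at 5.61, 6.23 and 7.12 CPM in CT, with overlapping groups and a log2 fold change of 0.02 in C26 (95% interval from -0.24 to 0.27). Within single libraries Gstm1 exceeded Gstm5 by 8.20 to 22.8 times in C26-TDCA, by 5.39 to 33.2 times in C26 and by 99.9 to 131 times in CT, so the ratio of these neighbours did not overlap between the tumour groups and CT. Gstm1 shares 18.9% of its 50-base stretches and Gstm3 28.8% with other annotated genes, Gstm5 none. Gstm4, Gstm2 and Gstm7 fell by less, with log2 fold changes of -1.27, -1.37 and -0.68 in C26.

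The pi class showed the same contrast on chromosome 19. Gstp1 (4035407-4037985, minus strand), the most abundant Gst gene of CT livers, was at 113, 148 and 264 CPM in C26-TDCA, at 131, 187 and 295 CPM in C26 livers, and at 822, 962 and 1064 CPM in CT. The groups did not overlap with CT, and the log2 fold change in C26 was -2.25 (SE 0.19, adjusted p = 3.68e-10). Gstp2 (4040285-4046023) fell with it, at -2.05 (SE 0.22), though Gstp1 and Gstp2 share 33.7% and 54.3% of their 50-base stretches with other genes, chiefly each other. Gstp3 (4057477-4059569), which shares none, was at 15.1, 20.0 and 24.2 CPM in C26-TDCA, at 19.3, 21.7 and 31.6 CPM in C26 livers, and at 14.2, 19.9 and 26.7 CPM in CT. Its groups overlapped, with a log2 fold change of 0.17 in C26 (95% interval from -0.07 to 0.41, adjusted p = 0.245) and 0.02 in C26-TDCA. The Gstp1 to Gstp3 ratio within a library was 5.67 to 12.4 in C26-TDCA, 4.51 to 15.3 in C26 and 36.7 to 72.4 in CT.

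The promoters of the 3 pi genes are shown because their RNA moved apart in the tumour groups although the genes lie next to each other. Each is the stretch from 100 bases before to 20 bases after the RefSeq start on GRCm38.p6, on the minus strand of chromosome 19 (chr19:4037893-4038012 for Gstp1, chr19:4042202-4042321 for Gstp2 and chr19:4059428-4059547 for Gstp3). Capitals mark the letters TGAGTCA, the reverse complement of TGACTCA, a site that AP-1 factors are known to bind.
Gstp1: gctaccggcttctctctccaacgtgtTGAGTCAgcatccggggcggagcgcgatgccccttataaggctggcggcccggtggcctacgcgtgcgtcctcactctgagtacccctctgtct
Gstp2: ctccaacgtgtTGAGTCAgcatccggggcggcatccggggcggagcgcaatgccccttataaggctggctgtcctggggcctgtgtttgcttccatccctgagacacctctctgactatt
Gstp3: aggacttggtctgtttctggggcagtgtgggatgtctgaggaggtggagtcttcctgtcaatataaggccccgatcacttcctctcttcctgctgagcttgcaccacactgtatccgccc
Over windows of 250 bases before to 50 after the start, the Gstp1 and Gstp2 promoters were 77.1% identical, whereas Gstp3 was 52.3% identical to Gstp1 and 50.8% to Gstp2. The site lies at -74 in Gstp1 and -89 in Gstp2, counted from the start, and these letters are not in the Gstp3 window. This motif was chosen after the sequences were seen. On either strand it occurred in 5 of the 52 windows of the 42 conjugation genes with a promoter in the table (9.62%) and in 5.20% of all 32851 windows. The 5 were those of Gstp1, Gstp2, Gstm5, Sult1b1 and Ugt2b37, of which all but Gstm5 fell in C26 against CT. The core of the antioxidant response element, TGACNNNGC, which Nrf2 is known to bind, occurred in 4 of the 52 windows (Gsta3, Gstm5, Gstm7 and Mgst1), or 7.69%, and in 12.4% of all windows. The core of the xenobiotic response element, GCGTG, occurred in 21.2% of the 52 windows and in 32.4% of all windows. The HNF1 core, GTTAATNAT, occurred in 4 of the 52 windows (Ugt1a10, Ugt1a9, Ugt1a1 and Sult1d1), or 7.69%, and in 0.80% of all windows. A match is only a description of the letters.

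The remaining Gst classes fell to different degrees. All 3 theta genes fell, with a median log2 fold change of -2.34 in C26, and every library of both tumour groups was below CT. Gstt1, which acts on small halogenated compounds, was at 18.7 to 28.4 CPM in C26-TDCA, 14.9 to 44.8 CPM in C26 and 110 to 153 CPM in CT. Gsto1, of the omega class, fell by 1.63 on the log2 scale in C26. Gstz1, which isomerises maleylacetoacetate in tyrosine breakdown, was at 406, 448 and 479 CPM in C26-TDCA, at 404, 460 and 539 CPM in C26 livers, and at 550, 572 and 615 CPM in CT. All tumour libraries were still below CT, with a log2 fold change of -0.31 in C26 (SE 0.07, adjusted p = 0.000262). The mitochondrial and peroxisomal Gstk1 had -0.37 (SE 0.10), with overlapping groups.

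The make-up of the Gst transcripts differed. In CT livers Gstp1, Gsta3, Gstm1 and Gstz1 gave 25, 19.9, 19.8 and 15.1% of the summed Gst CPM. In C26 livers Gstz1 alone gave 44.8% and Gstp1 19.4%, and in C26-TDCA livers Gstz1 gave 47.3% and Gstp1 17.8%. These shares are not corrected for exon length. Per kilobase of exon Gstp1 stood above Gstz1, at 129 against 90.6 CPM in C26 and 108 against 87.4 CPM in C26-TDCA.

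Mgst1 encodes a microsomal enzyme that conjugates glutathione and also reduces lipid hydroperoxides, and its RNA was the most abundant of all 47 per length. At 833 ± 105 CPM per kilobase of exon in C26-TDCA, 865 ± 211 in C26 and 1084 ± 48.7 in CT, it ranked first in each group. It was at 1408, 1630 and 2015 CPM in C26-TDCA, at 1254, 1754 and 2478 CPM in C26 livers, and at 2066, 2203 and 2311 CPM in CT. C26 replicate 2 (2478 CPM) was above every CT library. The other C26 libraries, at up to 2051 CPM, were below CT, as were all C26-TDCA libraries. The log2 fold change was -0.33 in C26 (SE 0.12, adjusted p = 0.0268) and -0.38 in C26-TDCA (SE 0.12, adjusted p = 0.0106). The C26 call was lost with upper-quartile scaling (-0.26), in a fit of the 2 groups alone (-0.30), and without C26 replicate 1, 3 or 4 or CT replicate 6. Mgst3, whose enzyme has leukotriene C4 synthase activity, was at 1.98 to 4.19 CPM in C26-TDCA, 2.16 to 5.31 CPM in C26 and 11.9 to 15.8 CPM in CT, and fell by 1.95 on the log2 scale in C26 (SE 0.17, adjusted p = 7.85e-10).

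**Figure D4:**
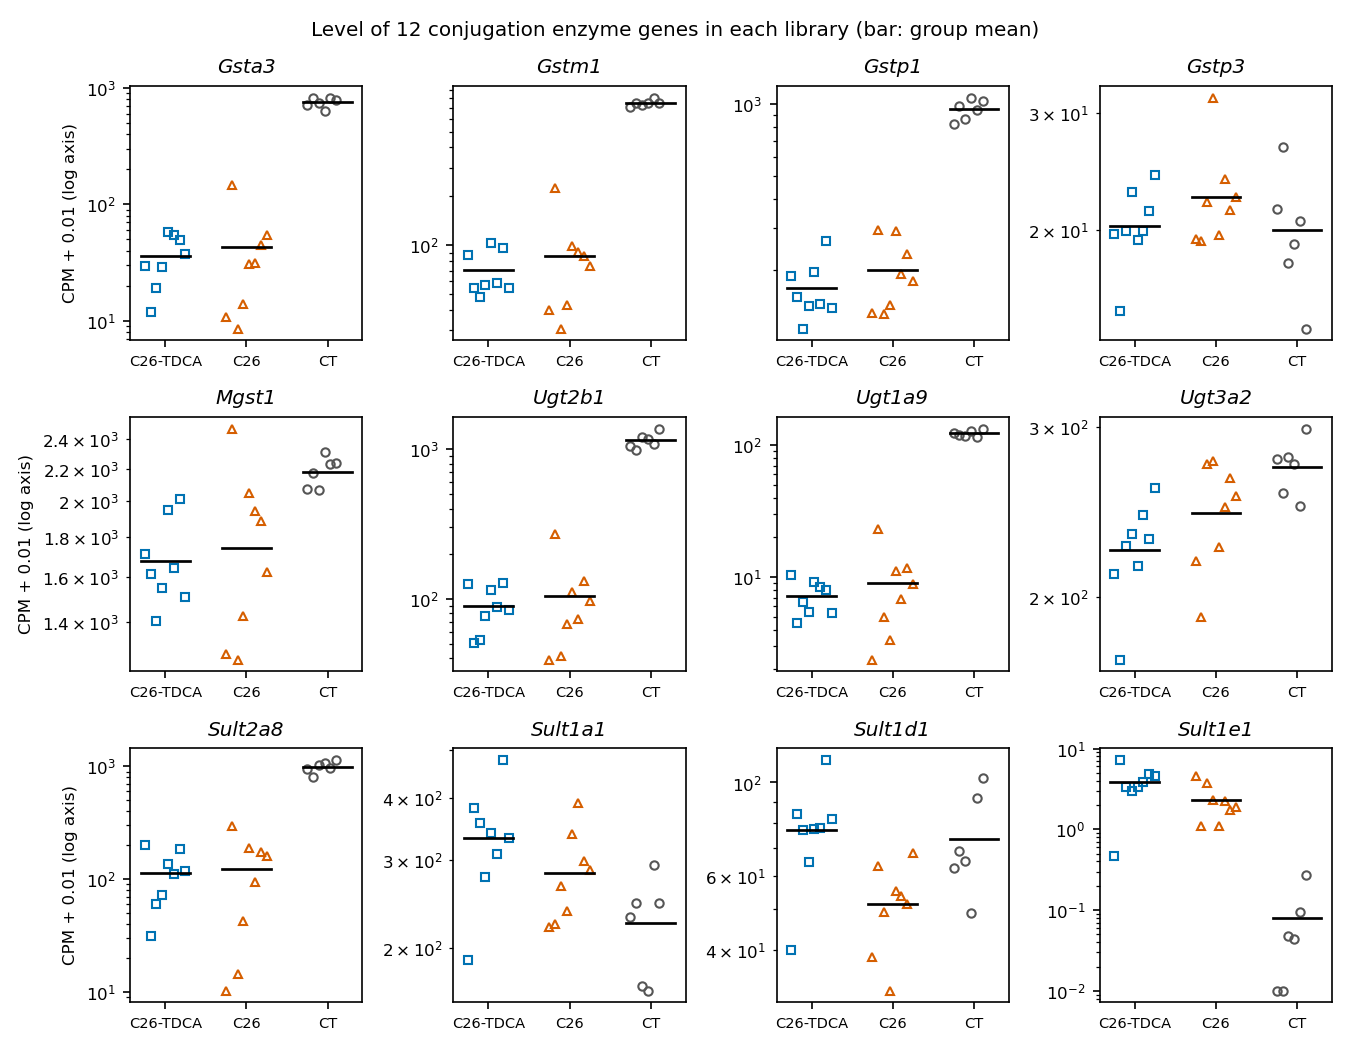
CPM + 0.01 on a log axis for 12 conjugation genes in each library of C26-TDCA (n = 8), C26 (n = 8) and CT (n = 6), with the group mean as a bar. Gsta3, Gstm1, Gstp1, Ugt2b1, Ugt1a9 and Sult2a8 are lower in every tumour-bearing mouse than in every CT mouse, Gstp3 and Sult1a1 overlap, and Sult1e1 is higher in every tumour-bearing mouse.

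Of the 17 UDP-glycosyltransferase genes, 16 fell in C26 against CT, none rose and Ugt3a2 was not called, with a median of -1.70. In C26-TDCA against CT 16 fell as well, and Ugt1a7c was not called. Over all tested genes, 29.2% fell in C26 and 28.2% in C26-TDCA. The 7 Ugt2b genes, which form a cluster on chromosome 5 and whose enzymes act on steroids, bile acids and drugs, all fell in both tumour groups, with a median of -1.87 in C26. Ugt2b1 (86916638-86926530, minus strand) was at 50.8, 86.3 and 127 CPM in C26-TDCA, at 39.1, 85.1 and 270.0 CPM in C26 livers, and at 992, 1124 and 1370 CPM in CT. No tumour library reached the lowest CT library, and the log2 fold change was -3.66 in C26-TDCA (SE 0.33). Ugt2b38 had 0 to 43 counts in C26-TDCA libraries and 3 to 31 in C26 libraries, against 153 to 739 counts in CT libraries, with -3.84 in C26 (SE 0.43, adjusted p = 4.54e-08).

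Ugt2b5 was at 109.9, 167 and 232 CPM in C26-TDCA, at 110.1, 181 and 269 CPM in C26 livers, and at 719, 839 and 1040.0 CPM in CT, with -2.25 in C26 (SE 0.17, adjusted p = 4.73e-11). Ugt2b36, Ugt2b34 and Ugt2b35 fell by 1.86, 1.70 and 1.33 on the log2 scale in C26. The 7 genes thus covered a range from -1.33 to -3.84. Ugt2b5 and Ugt2b38 share 41.7% and 37.4% of their 50-base stretches with other genes, so their split is uncertain, whereas Ugt2b1 shares none. Ugt2a3, next to them on chromosome 5, fell by 2.32 in C26 (SE 0.22).

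The Ugt1a genes of chromosome 1 each have a first exon of their own and share the exons at the 3′ end, so 52.1 to 79.8% of their 50-base stretches are common to other genes, and how reads in the shared part were counted is uncertain. All 7 fell in C26, with a median of -1.52. Ugt1a9, whose enzyme acts on phenols, was at 4.48, 7.24 and 10.4 CPM in C26-TDCA, at 2.35, 7.79 and 23.0 CPM in C26 livers, and at 115, 121 and 133 CPM in CT. The groups were far apart, with -3.80 in C26 (SE 0.32, adjusted p = 2.99e-10). Ugt1a1, the enzyme of bilirubin, was at 12 to 17.7 CPM in C26-TDCA, 10.2 to 21.9 CPM in C26 and 37.5 to 60.2 CPM in CT, and fell by 1.60 in C26 (SE 0.14). Ugt1a6b fell by 0.88 (SE 0.16). The ratio of Ugt1a9 to Ugt1a6b within a library was 0.273 to 0.578 in C26-TDCA, 0.195 to 0.972 in C26 and 3.07 to 4.33 in CT. Ugt1a10 had 2 to 19 counts in C26-TDCA, 0 to 19 in C26 and 17 to 51 in CT, and its log2 fold change in C26 of -2.55 (SE 0.48) became -3.23 without C26 replicate 2. Ugt1a7c lost its C26 call without CT replicate 8.

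**Figure D5:**
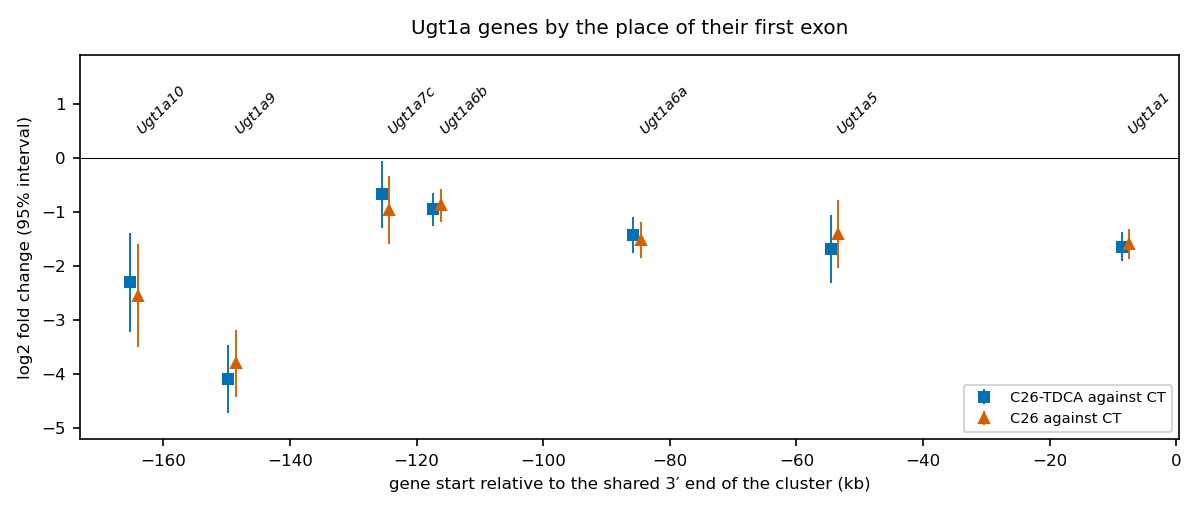
Log2 fold change against CT with approximate 95% interval (vertical) of the 7 Ugt1a genes by the distance of their start from the shared 3′ end of the cluster in kilobases (horizontal), for C26-TDCA (squares) and C26 (triangles). Ugt1a9 is lowest in both, and Ugt1a7c and Ugt1a6b lie nearest to 0.

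The pair of Ugt3a genes on chromosome 15, whose human counterparts use sugar donors other than UDP-glucuronate, had log2 fold changes in C26 of -0.16 and -0.61. Ugt3a2 was at 172, 228 and 259 CPM in C26-TDCA, at 191, 251 and 277 CPM in C26 livers, and at 248, 276 and 299 CPM in CT. The groups overlapped, with -0.16 in C26 (SE 0.09, adjusted p = 0.124) and -0.29 in C26-TDCA (SE 0.09, adjusted p = 0.00719). Ugt3a1 fell by 0.61 in C26 (SE 0.12). Ugt2b1 led the family in CT with 27.0% of the summed Ugt CPM, followed by Ugt2b5 with 20.2%. By the same share Ugt3a2 led it in both tumour groups, with 21.2% in C26-TDCA and 22.2% in C26. These shares are not corrected for exon length, and per kilobase of exon the order differed. In CT Ugt2b5 stood above Ugt2b1, at 460 against 444 CPM. Both Ugt2b36 and Ugt2b5 stood above Ugt3a2 in each tumour group. Ugt2b5 was at 91.1 against 72.1 CPM for Ugt3a2 in C26-TDCA, and at 96.8 against 78.7 CPM in C26.

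In C26 against CT 5 of the 8 sulfotransferase genes fell, 2 rose and 1 was not called, against 29.2% of all tested genes that fell and 28.9% that rose, with a median of -1.09. Sult2a8 (chromosome 7, 14410686-14446769, minus strand), known in mice as a bile acid sulfotransferase of the liver, was at 31.0, 115 and 201 CPM in C26-TDCA, at 10.2, 128 and 294 CPM in C26 livers, and at 813, 993 and 1150 CPM in CT. The lowest and highest tumour livers differed widely, yet all were below CT, with a log2 fold change of -3.02 in C26 (SE 0.53, adjusted p = 2.62e-05). Sult5a1 was at 4.63 to 11.7 CPM in C26-TDCA, 2.23 to 9.20 CPM in C26 and 35.7 to 53.2 CPM in CT, with -2.91 (SE 0.24, adjusted p = 2.31e-10). Sult1c2 was at 1.25 to 2.48 CPM in C26-TDCA, 0.617 to 1.75 CPM in C26 and 7.67 to 15.9 CPM in CT, with -3.10 (SE 0.21, adjusted p = 7.35e-12). Sult1b1, which sulfates thyroid hormones, fell by 1.67 in C26 (SE 0.10).

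Sult1a1 (chromosome 7, 126672865-126676432, minus strand), which sulfates simple phenols, did not fall. It was at 189, 336 and 478 CPM in C26-TDCA, at 220, 277 and 390 CPM in C26 livers, and at 164, 238 and 294 CPM in CT. The groups overlapped. Its log2 fold change was 0.57 in C26-TDCA (SE 0.17, adjusted p = 0.00572), which passed the threshold, and 0.33 in C26 (SE 0.17, adjusted p = 0.0934), which did not, though it did with upper-quartile scaling (0.41) and without CT replicate 7 (0.42). The difference between the tumour groups was 0.24 (95% interval from -0.07 to 0.54). Sult2a8 made up 71.8% of the summed Sult CPM in CT and Sult1a1 16.2%, whereas Sult1a1 made up 60.4% in C26-TDCA and 58.8% in C26, with Sult2a8 at 20.7% in C26-TDCA and 25.5% in C26. Within a library Sult1a1 was 0.937 to 12.3 times Sult2a8 in C26-TDCA, 0.757 to 21.6 times in C26 and 0.154 to 0.305 times in CT.

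Sult1e1, the oestrogen sulfotransferase, rose although it stayed low. It had 11 to 181 counts in C26-TDCA libraries, 18 to 119 in C26 libraries and 0 to 5 in CT libraries, of which 2 were at 0. In CPM these were 0.454 to 7.30 in C26-TDCA, 1.07 to 4.59 in C26 and 0 to 0.262 in CT. No tumour library overlapped CT, and the log2 fold change was 5.07 in C26 (SE 0.66, adjusted p = 4.44e-07) and 5.77 in C26-TDCA (SE 0.64, adjusted p = 3.57e-08). The CT mean of 0.070 CPM rested on replicate 8, without which it was 0.031 CPM and the log2 fold changes were 5.94 in C26 and 6.64 in C26-TDCA. Sult2a7, beside Sult2a8 on chromosome 7, was at 0.685, 3.28 and 4.58 CPM in C26-TDCA, at 0.347, 2.77 and 7.88 CPM in C26 livers, and at 0.565, 0.781 and 1.36 CPM in CT. Its groups overlapped, with 1.77 in C26 (SE 0.52, adjusted p = 0.00504).

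TDCA was set against the tumour alone, and none of the 46 genes passed the threshold between C26-TDCA and C26, in either direction. Among all tested genes 1.73% rose and 0.237% fell in that comparison. An unadjusted p under 0.05 was reached by 3 of the 46 (Sult1d1, Gstm4 and Sult1c2), against 15.8% of all tested genes, and DESeq2 called 1, Sult1d1. The median difference was -0.06 over the conjugation genes and -0.01 over all tested genes, with 17 genes above 0 and 29 below. The 95% interval lay within 1 log2 unit of 0 for 40 of the 46 and within 0.5 for 20. The 6 with wider intervals were Gsta2, Gsta3, Gstm3, Sult1e1, Sult2a8 and Ugt1a10. A missed threshold does not show that the groups were alike: for Sult2a8 the difference was -0.10 with an interval from -1.02 to 0.83, and for Gsta3 -0.24 with an interval from -1.07 to 0.59. For abundant genes the bounds were narrower, from -0.17 to 0.07 for Gstz1 and from -0.28 to 0.17 for Mgst1. Family sums of C26-TDCA and C26 libraries overlapped in all 4 families.

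Sult1d1, whose mouse enzyme sulfates dopamine and other catecholamines, had the lowest p of the 46 in this comparison. It was at 40.0, 77.8 and 113 CPM in C26-TDCA, at 32, 52.6 and 68.0 CPM in C26 livers, and at 49.0, 67.0 and 102 CPM in CT. The libraries of the 3 groups overlapped. The difference between C26-TDCA and C26 was 0.58 on the log2 scale (SE 0.17, 95% interval from 0.24 to 0.92), with an unadjusted p of 0.0025 and an adjusted p of 0.0816. It passed the threshold in DESeq2 (adjusted p = 0.026) and without C26-TDCA replicate 1, which held the lowest value of its group. Against CT, C26 was at -0.51 (SE 0.19, adjusted p = 0.0213), a call lost without CT replicate 7 or 8, and C26-TDCA was at 0.07 (SE 0.19, adjusted p = 0.759). Gstm4 was at 9.47, 12.8 and 14.6 CPM in C26-TDCA, at 12.4, 14.3 and 26.7 CPM in C26 livers, and at 32.3, 38.6 and 39.7 CPM in CT, with a difference of -0.34 between the tumour groups (SE 0.13, unadjusted p = 0.0142, adjusted p = 0.178).

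Conjugation also needs its donors, exporters and transcription factors, and lists of these were counted beside the enzymes in C26 against CT. Of 23 tested genes of glutathione supply, 10 rose, 7 fell and 6 were not called, with a median of 0.28. Gclc, the catalytic subunit of the rate-limiting step of glutathione synthesis, was at 122 ± 25.2 CPM in C26-TDCA, 124 ± 18.1 CPM in C26 and 269 ± 29.0 CPM in CT, and glutathione reductase, Gsr, fell by 0.54 in C26 (SE 0.06). Chac1, whose enzyme degrades glutathione, rose by 2.65 (SE 0.21), and Ggt6, a member of the gamma-glutamyltransferase family, by 1.91 (SE 0.14).

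Of 14 genes of UDP-glucuronate supply, 6 rose, 6 fell and 2 were not called. Ugp2, which makes UDP-glucose, was at 80.4 ± 8.79 CPM in C26-TDCA, 82.2 ± 12.1 CPM in C26 and 465 ± 30.0 CPM in CT, a log2 fold change of -2.50 in C26 (SE 0.09, adjusted p = 1.93e-17). Ugdh, which oxidises UDP-glucose to UDP-glucuronate and was singled out for that role after its values were seen, fell by 0.55 (SE 0.16). Entpd5, a nucleoside diphosphatase of the endoplasmic reticulum, fell by 1.21 (SE 0.12), whereas Pgm2 rose by 1.31 (SE 0.15).

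Of 17 genes of sulfate and PAPS supply, 3 rose, 5 fell and 9 were not called. Papss2, a synthase of the sulfate donor PAPS, was at 43.4 ± 7.22 CPM in C26-TDCA, 35.5 ± 12.5 CPM in C26 and 159 ± 29.4 CPM in CT, with -2.17 in C26 (SE 0.18, adjusted p = 2.65e-10). Ethe1, a mitochondrial enzyme of sulfide oxidation, fell by 1.68 (SE 0.11). Slc35b3, which carries PAPS into the Golgi apparatus, rose by 1.63 (SE 0.19). Impad1, a phosphatase of the Golgi, was the 1 gene of these lists called between C26-TDCA and C26, at 51.6 ± 5.10 CPM in C26-TDCA and 41.4 ± 6.05 CPM in C26 (log2 difference 0.32, SE 0.08, adjusted p = 0.0464).

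Of 14 conjugate exporters and related transporters, 9 fell, 2 rose and 3 were not called, with a median of -0.82. Abcc2, which exports glutathione and glucuronide conjugates into bile, was at 234 ± 19.5 CPM in C26-TDCA, 208 ± 43.9 CPM in C26 and 560 ± 86.3 CPM in CT. Abcc3, which exports glucuronides towards the blood, fell by 1.36 in C26 (SE 0.13). Of 23 regulators, 10 fell, 5 rose and 8 were not called. Nfe2l2, which encodes Nrf2, was at 31.6 ± 2.36 CPM in C26-TDCA, 31.9 ± 2.84 CPM in C26 and 59.3 ± 4.16 CPM in CT, and Nr1i3, which encodes the receptor CAR, fell by 2.61 in C26 (SE 0.25). Stat3, a factor of cytokine signalling, rose by 1.87 (SE 0.07). The shares of each list that fell and that rose can be read against the 29.2% and 28.9% of all tested genes.

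Since several conjugation genes are known to differ between the sexes of mice, genes of both patterns were counted too. Of 13 male-biased liver genes 10 fell, 2 rose and 1 was not called in C26 against CT, with a median of -1.61. The shares over all tested genes were 29.2% that fell and 28.9% that rose. Of 17 female-biased genes listed, 8 were tested and the other 9 were not analysed here, and of the 8 tested 6 fell, none rose and 2 were not called, with a median of -2.03. Cyp2d9, a male-biased gene, fell by 1.77 (SE 0.15), whereas Moxd1 of the same list rose, at 115 ± 59.2 CPM in C26-TDCA, 165 ± 95.1 CPM in C26 and 2.13 ± 2.12 CPM in CT (log2 fold change in C26 6.21, SE 0.66, adjusted p = 1.59e-08). Fmo1, a female-biased gene, fell by 3.2 (SE 0.29).

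The spread of CPM between libraries, relative to the mean, was wider for these genes in the tumour groups. Most of the genes also had lower levels there, where counting error is a larger part of the spread, and that part was not tested. The median coefficient of variation over the 46 genes was 23.8% in C26-TDCA, 33.6% in C26 and 11.6% in CT, and 29.5% in C26 without replicate 2. Gstz1 varied least in both tumour groups, at 7.0% in C26-TDCA and 9.29% in C26.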

How the data were processed

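Raw counts of reads per gene, as the authors deposited them with a column for each mouse, were analysed without change. The submitters' processing notes name HISAT2 2.2.1 and featureCounts 2.0.3, with Trimmomatic 0.40, bcl2fastq 2.17, FastQC and DESeq2 1.42.0, and the build GRCm38. RNA came from frozen liver by Trizol with DNase treatment, per the labels. The sources used here do not state the annotation release, the strand setting or the handling of reads with several matching genes, so genes with near-identical or overlapping copies are uncertain, and 50-base stretches shared with other genes were counted in GENCODE M21 (GRCm38), which also gave symbols, gene positions and exon lengths.

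Differential expression was tested in R 4.3.3 with edgeR 4.0.16, after filterByExpr with its minimum count of 10 (663 genes removed) and TMM scaling, in 1 model with a mean per group over all 22 libraries and Benjamini-Hochberg adjustment at 0.05. The median biological coefficient of variation was 15.1%. Standard errors were taken from each log2 fold change and its F statistic (absolute change divided by the root of F), and the 95% intervals built on them are approximate and include the spread between mice. P-values measure the spread between these mice. Floors of counts cover counting error only. Alternatives were DESeq2 1.42.0, its size factors or upper-quartile scaling in edgeR, no filter, the 2 groups of a comparison alone, voom with quality weights in limma 3.58.1, glmTreat with a limit of 0.5 on the log2 scale, the replicate number as a block, and leaving out each library. The scripts were tested on simulated data.

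Given library by library were the 2 members of each family with the highest mean, up to 3 called members with the highest and 3 with the lowest fold change in C26 against CT (of those reaching 5 CPM in either group), and the 2 of lowest p between C26-TDCA and C26. Up to 4 called genes of each supporting list were eligible by p. Other members are named for their place in a cluster or subfamily. Members and lists were chosen with earlier results of these data known. Promoters are RefSeq windows of GRCm38.p6, and 42 of the 47 members matched.

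The numbers in the labels are not said to pair mice, and the main test did not pair them. The correlation of deviations between same-numbered libraries was over 0.1 in 0 of 6 pairs of C26 and CT, 1 of 6 of C26-TDCA and CT, and 5 of 8 of C26-TDCA and C26. These values do not settle whether the numbers pair mice.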

Additional observations from a re-analysis of the deposited data

Results flagged for a closer look

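Of 63 sets of libraries examined (a gene or a family sum in 1 group), 8 held a library far from the others of its group. Chance alone gives about 1 in 20 for separate sets. These sets share libraries, so the 8 cannot be set against that rate. C26 replicate 2 was the high one in 6 of the 8. It had 148 CPM of Gsta3, against 8.49 to 54.4 CPM in the other C26 libraries, and 18.8 CPM of Gstm3, against 0.933 to 2.82 CPM. It had 270.0 CPM of Ugt2b1, against 39.1 to 131 CPM, and 23.0 CPM of Ugt1a9, against 2.35 to 11.6 CPM. It had 26.7 CPM of Gstm4, against 12.4 to 16.5 CPM, and a summed Gst level of 1584 CPM, against 790 to 1141 CPM. All these values lie on the CT side of the C26 group. C26-TDCA replicate 7 had a summed Sult level of 810 CPM, against 437 to 585 CPM in the other C26-TDCA libraries. CT replicate 8 was low for Gstm4, with 32.3 CPM against 37.5 to 39.7 CPM in the other CT libraries.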

How the results depend on the processing

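In C26 against CT the number of conjugation genes called lower was 33 to 41 and called higher 2 to 3 over the alternatives and left-out libraries, beside 40 and 2 in the main test; in C26-TDCA against CT it was 35 to 40 and 2 to 3, beside 39 and 3. Between C26-TDCA and C26 the count of higher genes was 1 in DESeq2 and 1 with the replicate block, and 0 to 1 when each library was left out, beside 0, the 1 gene being Sult1d1. The replicate block gave 41 lower (Ugt3a2 added) and 2 higher in C26 against CT, and 39 lower and 3 higher in C26-TDCA against CT. The best match of each library was also sought in another group. It carried the same number for 0 of 6 C26 libraries set against CT. It did so for 3 of 6 C26-TDCA libraries set against CT and 2 of 8 set against C26. Differences between C26-TDCA and C26 that were not called changed sign: Gsta2 to -0.76, Gsta3 to 0.13, Gstm3 to 0.20 and Sult2a8 to 0.17 with voom quality weights, and Gsta3 to 0.21 and Sult2a8 to 0.25 with the replicate block. With a library left out, these differences ranged from -0.45 to 0.34 (Gsta2), -0.40 to 0.38 (Gsta3), -0.74 to 0.43 (Gstm3), -0.112 to 0.0345 (Mgst1), -0.32 to 0.17 (Ugt2b1), -0.165 to 0.0194 (Ugt2b5), -0.29 to 0.12 (Ugt2b38), -0.438 to 0.0597 (Ugt1a9) and -0.28 to 0.22 (Sult2a8), and Sult1d1 in C26-TDCA against CT from -0.0262 to 0.191. The cause was not tested. Upper-quartile scaling moved the median of all genes in C26 against CT to 0.07, from -0.003. Changes of low genes such as Gsta1, Gsta2, Ugt1a10 and Sult1e1 are limited by their counts.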
